A study of Homo sapiens with 6 samples.

Results

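Collagen and laminin chain genes were followed in 6 RNA-seq libraries of MDA-MB-231, a triple-negative human breast cancer cell line, after transfection with siRNAs against SHC1 (siSHC1) or NCOA3 (siNCOA3) or with a control siRNA (siControl). Members were all rows of the expression table whose gene symbol is that of a collagen chain (COL, a number, A and a number) or of a laminin chain (LAMA, LAMB or LAMC and a number). They are 56 of the 20111 genes, 44 of them collagen and 12 laminin chains. Every siRNA has 1 library collected 48 h and 1 collected 24 h after transfection, so there are 2 libraries per siRNA and 3 per time. SHC1 encodes an adaptor protein of receptor tyrosine kinases, and NCOA3 a coactivator of nuclear receptors. The labels do not say whether libraries come from separate cultures, so p-values measure only the spread between these libraries. All 3 kinds of library are of the same line, which stands for a single tumour, and in such bulk RNA fewer cells of a type and less RNA per cell cannot be told apart.

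Collagens are trimers of chains wound into a triple helix, and only certain chains fit together. Fibrillar collagens build fibres, collagen IV builds the network of basement membranes, and other classes decorate fibres, anchor epithelia or span the cell membrane. Laminins are trimers of an alpha, a beta and a gamma chain that polymerise in basement membranes and bind integrins and dystroglycan on cells. Tumour cells can make such chains themselves, beside those made by stromal fibroblasts.

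Levels are in FPKM, a fragment count divided by gene length and by library size, as the authors deposited them. Between 14796 and 15221 genes were above 0 in a library, and the FPKM of a library summed to between 495518 and 553073. The absolute depth of the libraries is unknown. The knocked-down genes went with the labels. SHC1 was at 15.5 and 14.7 FPKM in siSHC1 at 48 h and 24 h, against 119 and 103 FPKM in siControl, and NCOA3 was at 1.85 and 1.72 FPKM in siNCOA3 at 48 h and 24 h, against 11.4 and 10.3 FPKM in siControl. All 5 mesenchymal markers of the line were tested, with VIM between 887 and 1020 FPKM. Among receptor and epithelial markers, ESR1 did not exceed 0.0922 FPKM, and PGR was listed at 0 throughout. ERBB2 and EPCAM of the same list were expressed, at 26.9 to 35.5 FPKM and 6.65 to 10.7 FPKM. Of the 6 fibroblast markers, 1 passed the filter on low values: PDGFRB, at 2.07 to 4.18 FPKM. DCN was listed at 0 in all 6 libraries. The summed level of the 6 fibroblast markers was 4.31 and 3.18 FPKM in siSHC1 at 48 h and 24 h, 2.53 and 2.93 FPKM in siNCOA3, and 4.5 and 2.42 FPKM in siControl. The 2 endothelial markers in the table did not exceed 0.0336 FPKM, and of the 3 leukocyte markers only CD14, at 3.24 to 7.51 FPKM, passed the filter.

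Stretches of DNA just upstream of the start sites of 5 chains are shown. COL5A1, LAMA5 and LAMB3 are among the chains that differ after siSHC1 below, and COL4A1 and COL4A2 are read outward from 1 short shared stretch. Not every chain that differs is shown: COL27A1, lower after siSHC1, is left out. Sequences are from RefSeq on GRCh38.p14, 5′ to 3′. Capitals mark 3 motifs, searched on both strands. The GC box was searched as GGGCGG. The box named for its letters was searched as CCAAT. The motif of the AP-1 transcription factors was searched as TGANTCA, where N is any base.

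COL4A1 and COL4A2, the 126 bases between both starts, chr13:110307158-110307283, plus strand: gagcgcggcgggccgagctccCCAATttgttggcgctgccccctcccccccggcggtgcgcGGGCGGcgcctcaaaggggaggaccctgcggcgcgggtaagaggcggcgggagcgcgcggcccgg
COL5A1, 250 bases, chr9:134641553-134641802, plus strand: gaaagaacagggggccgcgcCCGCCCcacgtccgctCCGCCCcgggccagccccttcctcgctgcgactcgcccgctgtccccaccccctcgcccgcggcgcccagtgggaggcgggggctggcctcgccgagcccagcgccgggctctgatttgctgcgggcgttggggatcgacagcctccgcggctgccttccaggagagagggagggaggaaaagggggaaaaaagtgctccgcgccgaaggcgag
LAMA5, 250 bases, chr20:62367313-62367562, minus strand: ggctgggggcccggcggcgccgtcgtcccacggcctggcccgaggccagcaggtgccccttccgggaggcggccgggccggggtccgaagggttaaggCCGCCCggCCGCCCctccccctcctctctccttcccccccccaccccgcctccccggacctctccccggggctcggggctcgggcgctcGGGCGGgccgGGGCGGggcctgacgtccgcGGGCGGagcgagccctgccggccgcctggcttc
LAMB3, 250 bases before the most downstream of 3 listed starts, chr1:209651375-209651624, minus strand: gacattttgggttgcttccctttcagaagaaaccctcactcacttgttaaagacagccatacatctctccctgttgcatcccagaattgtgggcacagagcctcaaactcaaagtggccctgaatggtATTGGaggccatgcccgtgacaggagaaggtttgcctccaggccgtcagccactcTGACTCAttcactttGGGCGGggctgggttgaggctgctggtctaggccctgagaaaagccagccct

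LAMA5 holds 5 GC boxes in these 250 bases, COL5A1 holds 2, and LAMB3 and the COL4A1 and COL4A2 stretch hold 1 each. GC content was 82.8% upstream of LAMA5, 80.2% between COL4A1 and COL4A2, 74.0% upstream of COL5A1 and 54.0% upstream of LAMB3. Of the 25 chains tested, 20 were found in the RefSeq promoter table, which reaches from 250 bases before a start to 50 bases after it. A chain was counted when any of its listed starts had the motif, whereas shares are over single promoters. Chains with several listed starts, such as LAMB3 with 3 and COL5A1 with 2, thus had more chances of a match. COL4A1 and COL4A2 were counted separately although they share the stretch printed above. Counts and shares are therefore not like for like. A GC box was found for 16 of these 20 chains, against 45.0% of 35116 promoters, and CCAAT was found for 5, against 34.6%. TATAAA was found for 5 of the 20, against 11.5% of promoters, and TGANTCA for 2, LAMA3 and LAMB3, against 7.71%. ACGTG, the core of hypoxia response elements, was found for 2, COL5A1 and COL12A1, against 21.4%, and is not marked in capitals. These are matches of letters in a window and were not tested as binding sites. COL1A1, COL1A2, COL6A1 and COL8A1 were among those not matched.

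Fewer than 1 in 2 chains were expressed at a level that could be tested. A gene was tested when it reached at least 1 scaled FPKM in at least 2 libraries, which held for 25 of 56 members (44.6%) and for 58.1% of all genes. They are 18 of 44 collagen and 7 of 12 laminin chains. Expressed chains were abundant: the median of their mean levels was 26.4 FPKM, against 13.1 FPKM over all 11690 tested genes. Of the 25, 14 had a mean of at least 20 FPKM, 19 a mean of at least 5 and 6 a mean between 1 and 5 FPKM. Among the 31 chains not tested the highest value in any library was 0.657 FPKM, for LAMA4. Of the 56, 21 never reached 0.1 FPKM, and 7 were listed at 0 in every library: COL2A1, COL6A6, COL19A1, COL22A1, COL23A1, COL25A1 and LAMC3.

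The laminin chains were led by LAMB3, a beta chain of the laminin of epithelial anchoring contacts, in which it joins LAMA3. LAMB3 had the highest level of all chains in each library and made up 16.5% to 20.4% of the members' summed FPKM. It was at 209 and 186 FPKM in siSHC1 at 48 h and 24 h, at 130.0 and 127 FPKM in siNCOA3, and at 146 and 136 FPKM in siControl. The siSHC1 libraries were the highest and the siNCOA3 libraries the lowest, with no overlap between siRNAs. For this and later statements on overlap, the share of all genes whose libraries separate likewise was not counted. LAMA3, the partner of LAMB3, was much lower. LAMA3 was at 12.4 and 11.6 FPKM in siSHC1 at 48 h and 24 h, at 10.8 and 10.4 FPKM in siNCOA3, and at 15.1 and 9.69 FPKM in siControl. Per length, LAMB3 was thus 9.70 to 16.8 times LAMA3.

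The chains of the more widely made laminins were all present. LAMA5, the alpha chain of many epithelial and vascular basement membranes, was at 76.8 and 61.4 FPKM in siSHC1 at 48 h and 24 h, at 42.6 and 41.4 FPKM in siNCOA3, and at 56.3 and 37.8 FPKM in siControl. The siSHC1 libraries lay above all others, whereas the siNCOA3 libraries lay between both siControl libraries. LAMC1, the common gamma chain, was at 80.0 and 72.9 FPKM in siSHC1 at 48 h and 24 h, at 60.1 and 64.4 FPKM in siNCOA3, and at 66.2 and 51.9 FPKM in siControl, so again the siSHC1 libraries were highest. Of the beta chains that pair with LAMC1, LAMB2 varied more than LAMB1. LAMB2 was at 82.7 and 56.0 FPKM in siSHC1 at 48 h and 24 h, at 47.2 and 43.9 FPKM in siNCOA3, and at 64.0 and 45.5 FPKM in siControl. LAMB1 stayed between 36.4 and 43.2 FPKM over all 6 libraries, with 37.6 and 36.7 FPKM in siSHC1 at 48 h and 24 h, 36.4 and 40.5 FPKM in siNCOA3, and 43.2 and 38.4 FPKM in siControl. The other alpha chains LAMA1, LAMA2 and LAMA4, LAMB4 and LAMC3 were not at testable levels. LAMA4, an alpha chain of vessel walls, was at 0.0710 and 0.175 FPKM in siSHC1 at 48 h and 24 h, 0.458 and 0.657 FPKM in siNCOA3, and 0.199 and 0.436 FPKM in siControl.

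Of 11 fibrillar chains 4 were tested, and COL5A1 stood far above the others. COL5A1 encodes a chain of collagen V, which helps start the assembly of collagen fibres. It was at 137 and 118 FPKM in siSHC1 at 48 h and 24 h, at 81.5 and 86.1 FPKM in siNCOA3, and at 82.6 and 66.5 FPKM in siControl. Both siSHC1 libraries were above all others, and the siNCOA3 and siControl libraries overlapped. Its usual partner COL5A2 did not exceed 0.162 FPKM in any library, and COL5A3 did not exceed 0.00685 FPKM. The chains of collagen I, the main collagen of bone and skin, were low. COL1A1 was at 7.47 and 6.78 FPKM in siSHC1 at 48 h and 24 h, at 4.58 and 3.36 FPKM in siNCOA3, and at 3.27 and 2.16 FPKM in siControl, with no overlap between siRNAs. COL1A2 averaged 1.49 FPKM over the 6 libraries and stayed between 1.15 and 1.88 FPKM. COL27A1, a fibrillar chain of cartilage, was at 1.59 and 2.18 FPKM in siSHC1 at 48 h and 24 h, at 3.55 and 3.54 FPKM in siNCOA3, and at 3.69 and 3.90 FPKM in siControl. The remaining 7, among them COL3A1 at no more than 0.0279 FPKM, did not exceed 0.237 FPKM.

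Of the basement membrane chains of collagen IV, COL4A2 exceeded COL4A1 in every library. COL4A2 was at 27.2 and 27.6 FPKM in siSHC1 at 48 h and 24 h, at 35.1 and 36.0 FPKM in siNCOA3, and at 28.3 and 28.6 FPKM in siControl. COL4A1 was at 5.45 and 7.56 FPKM in siSHC1 at 48 h and 24 h, at 10.8 and 11.4 FPKM in siNCOA3, and at 8.10 and 8.70 FPKM in siControl. For both genes the siNCOA3 libraries were highest and the siSHC1 libraries lowest, with no overlap between siRNAs. For COL4A2 the siSHC1 and siControl libraries lay close together. Its change between them in the fit described below was -0.09 (adjusted p = 0.552, limma). The common collagen IV trimer takes up more COL4A1 than COL4A2, whereas the level of COL4A2 was 3.16 to 4.98 times that of COL4A1. COL4A5, a chain of kidney and lung basement membranes, averaged 4.53 FPKM, and COL4A3, COL4A4 and COL4A6 did not exceed 0.539 FPKM.

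Collagen VI, a beaded filament around cells, was represented by its 3 classical chains. COL6A1 was at 65.1 and 52.9 FPKM in siSHC1 at 48 h and 24 h, at 45.2 and 44.9 FPKM in siNCOA3, and at 53.1 and 40.8 FPKM in siControl. COL6A2 was at 27.2 and 23.7 FPKM in siSHC1 at 48 h and 24 h, at 27.2 and 25.9 FPKM in siNCOA3, and at 32.3 and 22.02 FPKM in siControl. COL6A3 averaged 4.42 FPKM, so that COL6A1 was 1.65 to 2.39 times COL6A2 and 8.70 to 16.6 times COL6A3, although the filament takes up the 3 chains together.

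Among collagens that span the cell membrane, COL13A1 was at 77.6 and 60.9 FPKM in siSHC1 at 48 h and 24 h, at 55.7 and 60.4 FPKM in siNCOA3, and at 75.5 and 56.9 FPKM in siControl. COL17A1, a component of hemidesmosomes, was at 6.26 and 6.15 FPKM in siSHC1 at 48 h and 24 h, at 5.44 and 4.72 FPKM in siNCOA3, and at 5.04 and 5.45 FPKM in siControl. COL7A1, which forms the anchoring fibrils beneath epithelia, was at 22.5 and 32.1 FPKM in siSHC1 at 48 h and 24 h, at 18.5 and 19.4 FPKM in siNCOA3, and at 22.3 and 24.9 FPKM in siControl. COL7A1 was the member with the largest fall at 48 h relative to 24 h within siSHC1. COL18A1, the basement membrane collagen that gives rise to endostatin, was at 74.3 and 57.9 FPKM in siSHC1 at 48 h and 24 h, at 55.1 and 49.1 FPKM in siNCOA3, and at 58.1 and 45.8 FPKM in siControl. Its relative COL15A1 did not exceed 0.384 FPKM.

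The fibril-associated class gave 3 tested chains of 10. COL12A1 was at 32.2 and 29.3 FPKM in siSHC1 at 48 h and 24 h, at 25.9 and 28.0 FPKM in siNCOA3, and at 27.7 and 29.2 FPKM in siControl. COL9A2, a chain of the cartilage collagen IX, was at 33.6 and 16.1 FPKM in siSHC1 at 48 h and 24 h, at 8.24 and 10.03 FPKM in siNCOA3, and at 15.5 and 9.77 FPKM in siControl. Within siSHC1, COL9A2 differed more between the times than any other tested member, and the other chains of its trimer were near 0, with COL9A3 at no more than 0.613 FPKM and COL9A1 at no more than 0.0125 FPKM. COL16A1 averaged 3.34 FPKM. COL8A1, a network-forming chain of vessels and the eye, was at 22.7 and 20.5 FPKM in siSHC1 at 48 h and 24 h, at 28.5 and 32.2 FPKM in siNCOA3, and at 31.1 and 24.2 FPKM in siControl. COL8A2 and COL10A1 of that class did not exceed 0.0965 FPKM.

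**Figure D1:**
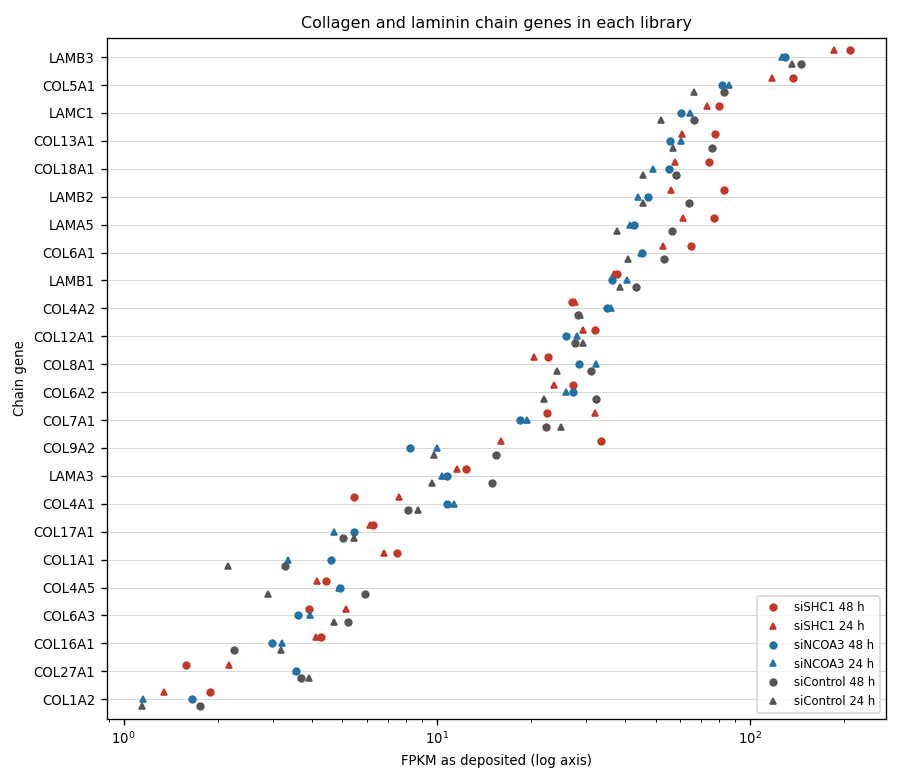
FPKM as deposited of 24 tested chains (log axis) in each of the 6 libraries, ordered by mean level, with 1 point per library, circles for 48 h and triangles for 24 h. LAMB3 is highest in every library, and levels reach down to 1.15 FPKM for COL1A2.

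After siSHC1, COL1A1, COL5A1, LAMA5 and LAMB3 were higher than after siControl and COL27A1 was lower. This comparison asks how the chain genes differ between siSHC1 and siControl over both times, on log2(scaled FPKM + 1). It used limma, a model with terms for siRNA and time and Benjamini-Hochberg adjustment over the 11690 genes. The labels give only the name siSHC1, so effects of losing SHC1 cannot be told apart from other effects of this siRNA. The same holds for siNCOA3. Of the 25 tested chains 4 were called higher (16%), where 3.11% of all tested genes were called higher, and 1 was called lower (4%), where 3.32% of all tested genes were called lower, at an adjusted p under 0.05. The median change was 0.08 over the 25 chains and 0.00 over all tested genes, with 16 chains above 0 and 9 below. At an unadjusted p under 0.05 there were 14 chains (56.0%), where 26.3% of all tested genes were.

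COL1A1 changed by 1.12 ± 0.12 (SE; limma adjusted p = 0.00776), 2.17-fold on this scale, which understates changes of low genes. Both siSHC1 libraries lay above both siControl libraries, and the difference was 1.01 at 48 h and 1.23 at 24 h. COL5A1 changed by 0.74 ± 0.09 (adjusted p = 0.0114, limma), or 1.67-fold, with 0.75 at 48 h and 0.72 at 24 h. LAMA5 changed by 0.53 ± 0.11 (adjusted p = 0.0415, limma), or 1.44-fold, and LAMB3 by 0.44 ± 0.08 (adjusted p = 0.0268, limma), or 1.36-fold. For each of these 4 genes the siSHC1 libraries were both above the siControl libraries. COL27A1 changed by -0.77 ± 0.13 (adjusted p = 0.0280, limma), or 0.587-fold on this scale, which understates changes of low genes. Its mean was 1.88 FPKM in siSHC1 and 3.79 FPKM in siControl, and both siSHC1 libraries were below both siControl libraries.

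LAMA3 and COL1A2, partners of LAMB3 and COL1A1, were not called. LAMA3 had a change of -0.04 ± 0.13 (adjusted p = 0.863, limma), while LAMB3 rose. The ratio of LAMB3 to LAMA3 was 16.8 and 16.0 in siSHC1 at 48 h and 24 h, 12.01 and 12.2 in siNCOA3, and 9.70 and 14.1 in siControl, so both siSHC1 values lay above all others. COL1A2 had a change of 0.08 ± 0.14, and the ratio of COL1A1 to COL1A2 was 3.97 and 5.05 in siSHC1 at 48 h and 24 h, 2.77 and 2.91 in siNCOA3, and 1.87 and 1.88 in siControl. No test was made on ratios.

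Other chains had changes that missed the threshold. COL9A2 had a change of 0.84 ± 0.29 (adjusted p = 0.147, limma), which was 1.09 at 48 h and 0.58 at 24 h. COL16A1 had 0.46 ± 0.15, LAMC1 0.34 ± 0.10, COL18A1 0.31 ± 0.08, LAMB2 0.29 ± 0.11 and COL6A1 0.29 ± 0.10, with adjusted p between 0.0791 and 0.163. On the lower side, COL4A1 had -0.37 ± 0.12 (adjusted p = 0.108) and COL8A1 -0.37 ± 0.11 (adjusted p = 0.104), both by limma. Changes of the other chains named here ran from -0.16 for LAMB1 to 0.18 for COL17A1.

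The count of 5 depended on single libraries. So did the count over all tested genes, 751 with all 6 libraries and lower in each of the next 3 fits. Leaving out siControl at 24 h gave 0 calls, leaving out siControl at 48 h gave 1 (COL1A1), and leaving out siSHC1 at 48 h gave 2 (COL1A1 and COL5A1). With equal library totals as the scaling, the split was 3 higher and 2 lower in place of 4 and 1, with LAMA5 among the calls lost, and without a filter on low values no chain was called.

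**Figure D2:**
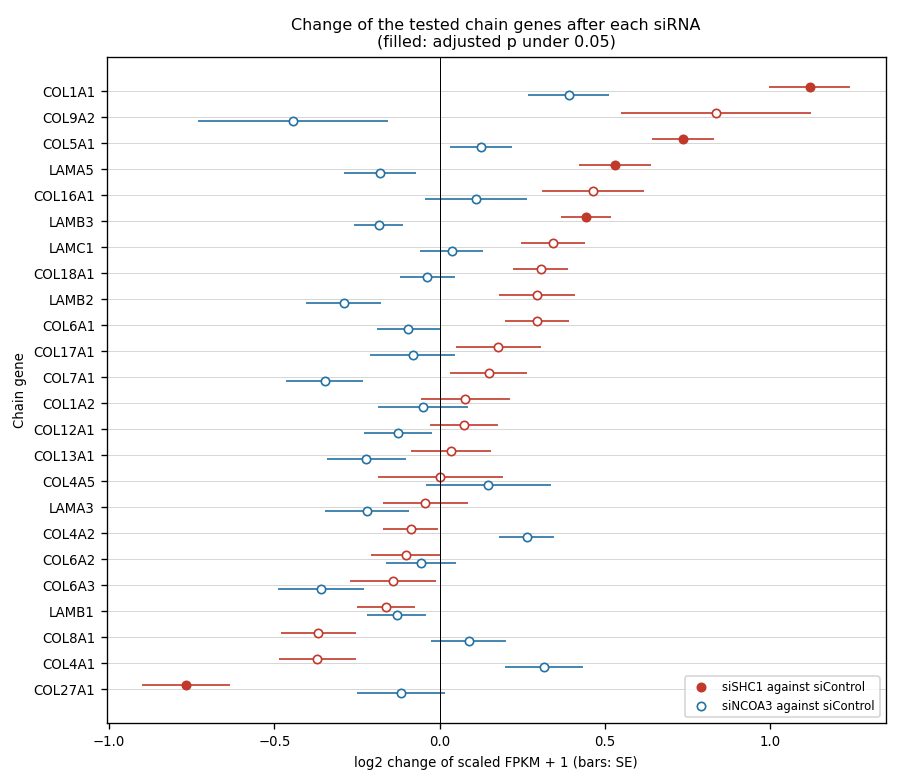
Change of 24 tested chains on the log2(scaled FPKM + 1) scale, with its SE as bars, for siSHC1 (red, upper) and siNCOA3 (blue, lower) against siControl, where filled points have an adjusted p under 0.05. The 5 filled points are all of siSHC1, from -0.77 for COL27A1 to 1.12 for COL1A1, and both sets of changes share the siControl libraries.

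**Figure D3:**
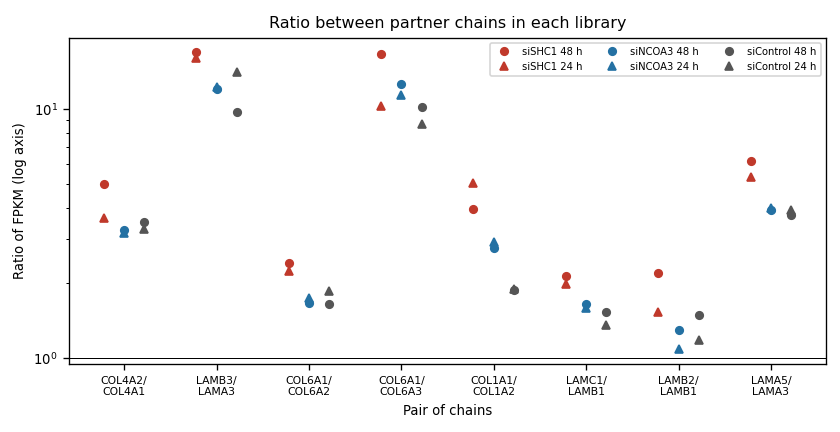
Ratio of FPKM between pairs of chains (log axis) in each library, red for siSHC1, blue for siNCOA3 and grey for siControl, circles for 48 h and triangles for 24 h. The pairs LAMB2 to LAMB1 and LAMA5 to LAMA3 are chains of the same kind, not partners in a trimer. The ratio of COL1A1 to COL1A2 is 3.97 and 5.05 in siSHC1 at 48 h and 24 h, 2.77 and 2.91 in siNCOA3, and 1.87 and 1.88 in siControl.

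After siNCOA3 no chain was called against siControl. The count was 0 of 25, where 0.111% of all tested genes were called in either direction by limma. At an unadjusted p under 0.05 were 7 chains (28.0%), where 10.5% of all tested genes were. The median change was -0.10 over the chains and -0.00064 over all tested genes, with 8 chains above 0 and 17 below. COL1A1 had a change of 0.39 ± 0.12 (adjusted p = 0.376, limma), and its siNCOA3 libraries lay above its siControl libraries. COL4A1 had 0.32 ± 0.12 (adjusted p = 0.418) and COL4A2 0.26 ± 0.08 (adjusted p = 0.376), again with no overlap between the libraries. The lowest values were -0.44 ± 0.29 for COL9A2, -0.36 ± 0.13 for COL6A3, -0.35 ± 0.12 for COL7A1 and -0.29 ± 0.11 for LAMB2. Comparisons of siSHC1 and of siNCOA3 with siControl share the siControl libraries, so their values are not independent.

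Set directly against siNCOA3, siSHC1 libraries had 7 chains higher and 3 lower. This comparison uses no siControl library for the difference itself, although these libraries enter the estimate of error. Of 25 chains 28% were called higher, where 5.35% of all tested genes were called higher, and 12% were called lower, where 4.40% of all tested genes were called lower. The median change was 0.26 over the chains and 0.00 over all tested genes. COL1A1 differed by 0.73 ± 0.12 (adjusted p = 0.0187), LAMA5 by 0.71 ± 0.11 (adjusted p = 0.0149), LAMB3 by 0.63 ± 0.08 (adjusted p = 0.00725) and COL5A1 by 0.61 ± 0.09 (adjusted p = 0.0146), all by limma. The higher chains also included LAMB2 with 0.59 ± 0.11 (adjusted p = 0.0279), COL7A1 with 0.50 ± 0.12 (adjusted p = 0.0454) and COL18A1 with 0.34 ± 0.08 (adjusted p = 0.0490).

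The 3 lower chains were COL4A1, COL4A2 and COL27A1. COL4A1 differed by -0.69 ± 0.12 (adjusted p = 0.0193) and COL4A2 by -0.35 ± 0.08 (adjusted p = 0.0471), both by limma, and this pair shares the 126 bases printed above. The call of COL4A1 was lost on leaving out siNCOA3 or siSHC1 at 48 h and with no term for time, and that of COL4A2 with no scaling, with no term for time and on leaving out any 1 of the 6 libraries. COL4A1 was on opposite sides of siControl in both knockdowns, at 5.45 and 7.56 FPKM in siSHC1 at 48 h and 24 h and at 10.8 and 11.4 FPKM in siNCOA3, against 8.10 and 8.70 FPKM in siControl, but neither difference from siControl was called. COL27A1 differed by -0.65 ± 0.13 (adjusted p = 0.0314, limma). COL9A2 had the largest difference, 1.28 ± 0.29, and missed the threshold (adjusted p = 0.0523, limma), with 1.92 at 48 h and 0.65 at 24 h. Leaving out siNCOA3 at 48 h gave 1 call in place of 10, and leaving out siSHC1 at 48 h gave 3. Calls over all tested genes, 1139 with all 6 libraries, also fell in both of these fits. With equal library totals the split was 5 higher and 4 lower, and without a filter on low values no chain was called.

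**Figure D4:**
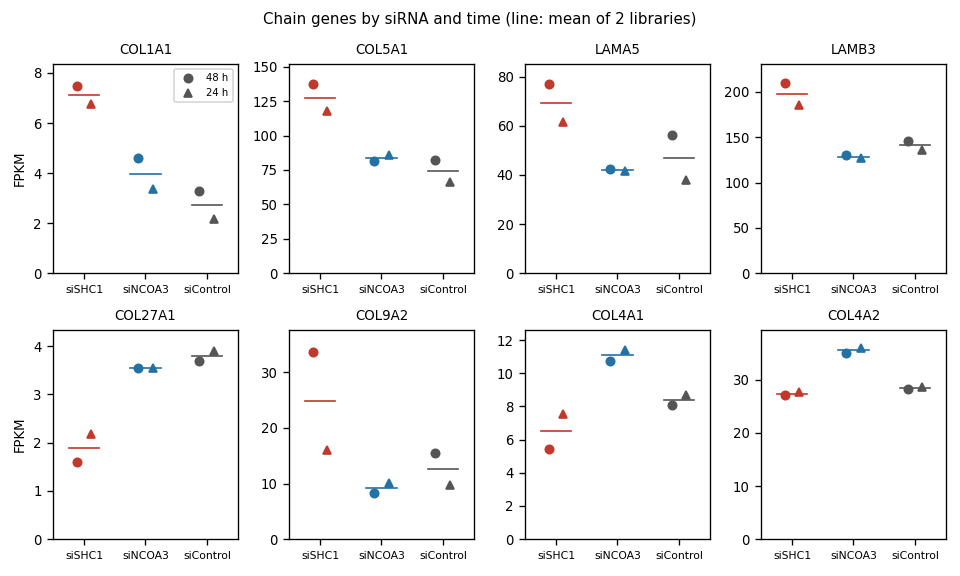
FPKM as deposited of 8 chains by siRNA, circles for 48 h and triangles for 24 h, with lines at the mean of the 2 libraries. COL1A1, COL5A1, LAMA5 and LAMB3 are highest in siSHC1 and COL27A1 is lowest there, whereas COL4A1 and COL4A2 are highest in siNCOA3, and COL9A2 spans 16.1 to 33.6 FPKM within siSHC1.

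Between the times no chain was called. The count was 0 of 25, where 0.0257% of all tested genes were called in either direction by limma. At an unadjusted p under 0.05 were 8 chains (32.0%), where 14.2% of all tested genes were. Over the 3 siRNAs the median of 48 h minus 24 h was 0.11 for the chains and 0.01 for all tested genes, with 17 chains above 0 and 8 below. Among the 8 chains at an unadjusted p under 0.05, LAMB2 had the largest difference, 0.36 ± 0.09 (adjusted p = 0.281, limma). COL1A2 had 0.31 ± 0.11, COL1A1 0.29 ± 0.10, LAMA5 0.29 ± 0.09 and COL18A1 0.27 ± 0.07, with adjusted p between 0.281 and 0.317 by limma. COL7A1 was the one of the 8 with a negative value, -0.26 ± 0.10 (adjusted p = 0.326, limma).

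Within a siRNA, where each time has 1 library and no test is possible, values of 48 h and 24 h can only be described. A difference of at least 0.2 in size between 48 h and 24 h was seen for 13 chains in siSHC1, 9 of them higher at 48 h, for 3 in siNCOA3, 2 of them higher, and for 16 in siControl, 14 of them higher. Of all tested genes 37.5% differed by as much in siSHC1, 19.4% in siNCOA3 and 37.4% in siControl, and 21.2%, 10.5% and 20.1% were higher at 48 h by as much in siSHC1, siNCOA3 and siControl. The share was lowest in siNCOA3 over all tested genes too. The extremes in siSHC1 were 1.04 for COL9A2 and -0.48 for COL7A1. In siNCOA3 they were 0.37 for COL1A1 and -0.23 for COL9A2, and in siControl 0.75 for COL4A5 and -0.44 for COL16A1. The summed level of the laminin chains was 509 and 433 FPKM in siSHC1 at 48 h and 24 h, 338 and 339 FPKM in siNCOA3, and 404 and 332 FPKM in siControl. For the collagen chains it was 557 and 478 FPKM in siSHC1 at 48 h and 24 h, 420 and 430 FPKM in siNCOA3, and 463 and 382 FPKM in siControl. The siControl library of 24 h, lowest in both sums, also had the lowest total FPKM of the 6 libraries and the lowest scaling factor, 0.947; its part in these differences was not tested.

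Of the enzymes that modify collagen chains in the endoplasmic reticulum, 5 rose after siSHC1. Prolyl hydroxylases stabilise the triple helix, and lysyl hydroxylases prepare the sites of glycosylation and cross-linking. Of 12 tested genes of this list 5 were called higher than in siControl and 0 lower, where 3.11% of all tested genes were called higher, and the median change of the list was 0.42. The called genes were P4HA2 with 0.86 ± 0.10 (adjusted p = 0.0105), P4HA1 with 0.80 ± 0.12 (adjusted p = 0.0202), LEPREL1 with 0.54 ± 0.11 (adjusted p = 0.0367), PLOD2 with 0.49 ± 0.11 (adjusted p = 0.0474) and PLOD3 with 0.45 ± 0.10 (adjusted p = 0.0481), all by limma. P4HA1 and P4HA2 encode catalytic subunits of prolyl 4-hydroxylase. P4HA1 was at 89.1 and 62.0 FPKM in siSHC1 at 48 h and 24 h, at 39.5 and 38.8 FPKM in siNCOA3, and at 45.9 and 37.4 FPKM in siControl, and P4HA2 was at 87.2 and 70.3 FPKM in siSHC1 at 48 h and 24 h, at 42.6 and 43.7 FPKM in siNCOA3, and at 47.9 and 36.3 FPKM in siControl. The siSHC1 libraries were above all the others for both genes. In place of 5 calls there were 3 with equal library totals or with no robust moderation, 0 with no filter on low values or on leaving out siControl at 24 h, and 1 with no term for time or on leaving out siControl or siSHC1 at 48 h. CRTAP and PPIB, which work with prolyl 3-hydroxylase, had changes of 0.02 and -0.11.

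The later steps of collagen maturation gave 1 call in each of 2 lists, where 3.11% of all tested genes were called higher. Of 11 tested genes for folding, export and trimming 1 was higher, BMP1, the proteinase that cuts procollagen C-propeptides, with 0.52 ± 0.11 (adjusted p = 0.0416, limma). SERPINH1, the collagen chaperone, had 0.20 ± 0.07 (adjusted p = 0.123). Of 4 lysyl oxidases, which cross-link collagen, LOXL2 was higher by 0.39 ± 0.08 (adjusted p = 0.0374, limma), and it was the most abundant at 195 and 170 FPKM in siSHC1 at 48 h and 24 h, against 143 and 128 FPKM in siControl. Both lists had 0 calls with equal library totals, with no filter on low values, with no term for time, and on leaving out siControl at 24 h, siControl at 48 h or siSHC1 at 48 h.

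Of 6 collagen receptors 2 were lower after siSHC1, where 3.32% of all tested genes were called lower. ITGB1, the beta subunit shared by collagen-binding and several laminin-binding integrins, changed by -1.38 ± 0.06 (adjusted p = 0.000552, limma), at 184 and 178 FPKM in siSHC1 at 48 h and 24 h, 473 and 481 FPKM in siNCOA3, and 481 and 445 FPKM in siControl. DDR1, a receptor tyrosine kinase for collagen, changed by -0.56 ± 0.12 (adjusted p = 0.0439, limma). DDR1 was lower in siSHC1 at each time, at 39.8 and 24.8 FPKM in siSHC1 at 48 h and 24 h, against 53.6 and 39.15 FPKM in siControl. Of 7 laminin receptors ITGB1 was lower and DAG1, dystroglycan, was higher by 0.39 ± 0.09 (adjusted p = 0.0489, limma), where 3.32% of all tested genes were called lower and 3.11% higher. ITGB4, which pairs with ITGA6 at hemidesmosomes, had 0.36 ± 0.10 (adjusted p = 0.0768, limma), and the partners ITGA3 and ITGA6 had 0.05 and -0.03. DAG1 was not called in 9 of 13 alternatives, among them no scaling, equal library totals and no robust moderation. DDR1 was not called with no filter on low values, with no term for time or on leaving out siControl at 24 h, siSHC1 at 24 h or siControl at 48 h.

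Among 6 enzymes and inhibitors acting on basement membrane, MMP14, a membrane-bound collagenase, changed by -0.57 ± 0.09 (adjusted p = 0.0231, limma), a call lost with no filter on low values and on leaving out siControl at 24 h, siControl at 48 h or siSHC1 at 48 h. None of 8 basement membrane partners was called by limma, and 4 were at an unadjusted p under 0.05, where 26.3% of all tested genes were. FBLN1 had -0.73 ± 0.18 (adjusted p = 0.0669) and NTN4 0.54 ± 0.14 (adjusted p = 0.0728), both by limma. None of 6 TGF-beta ligands and readouts was called by limma, with 2 at an unadjusted p under 0.05. TGFB1 had -0.25 ± 0.09 (adjusted p = 0.159, limma). In these 2 lists FN1 and CTGF, often named with collagen induction, had 0.11 ± 0.15 and 0.03 ± 0.14. The cell type markers gave no call by limma in this comparison and 0 at an unadjusted p under 0.05, with 0.12 for AXL, -0.10 for MSN, 0.28 for EPCAM, -0.14 for ERBB2, -0.00 for PDGFRB and 0.06 for CD14.

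After siNCOA3 none of these lists held a called gene by limma, and 14 of their 67 tested genes were at an unadjusted p under 0.05, where 10.5% of all tested genes were. The changes furthest from 0 were -0.79 for ADAMTS14, a procollagen N-propeptidase, and -0.41 for PCOLCE in trimming, -0.48 for PLOD2 and 0.13 for LEPREL1 among the hydroxylases, and -0.47 for LOXL4 and -0.21 for LOXL1 among the lysyl oxidases, with adjusted p of 0.244 and above by limma. Receptors had -0.28 for ITGA1, -0.11 for ITGA10, -0.30 for BCAM and -0.23 for ITGA6, and basement membrane partners -0.19 for FN1 and -0.12 for PXDN. MMP14 had -0.32, TIMP3 -0.29, TGFBI -0.43 and CTGF 0.39, and markers had -0.27 for CAV1, 0.10 for VIM, 0.04 for EPCAM, 0.01 for ERBB2, -0.24 for PDGFRB and -0.40 for CD14. Directly between the knockdowns, 6 of the 12 hydroxylase and glycosylation genes were higher in siSHC1 than in siNCOA3 and 0 were lower, where 5.35% of all tested genes were called higher. PLOD2 was higher by 0.97 ± 0.11 (adjusted p = 0.00614, limma). In place of 6 calls there were 2 on leaving out siNCOA3 at 48 h, 3 on leaving out siSHC1 at 48 h or with no term for time, and 0 with no filter on low values. ADAMTS14 was 1.35 ± 0.17 higher in siSHC1 than in siNCOA3 (adjusted p = 0.00812, limma). With it, 3 of 11 folding, export and trimming genes were called higher, and so were 2 of 4 lysyl oxidases. Of 6 collagen receptors 2 were called lower and of 7 laminin receptors 1, where 4.40% of all tested genes were. The lists of basement membrane partners, of basement membrane enzymes and inhibitors, of TGF-beta genes and of mesenchymal markers each had 1 called higher. Not all of these genes are named.

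**Figure D5:**
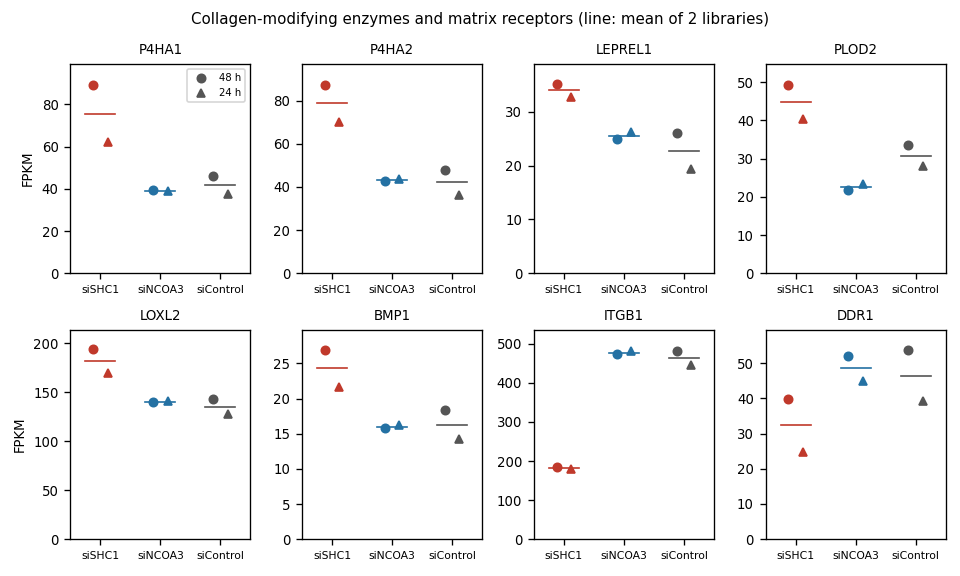
FPKM as deposited of 8 genes for collagen modification, cross-linking, trimming and reception by siRNA, circles for 48 h and triangles for 24 h, with lines at the mean of the 2 libraries. P4HA1, P4HA2, LEPREL1, PLOD2, LOXL2 and BMP1 are highest in siSHC1, while ITGB1 is at 184 and 178 FPKM there against 445 FPKM or more in every other library.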

How the data were processed

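RNA-seq values of 6 MDA-MB-231 libraries were used. Per the labels' protocols, total RNA (1 µg, isolated in Trizol) went into a strand-preserving mRNA library kit. The submitters' processing notes name STAR, Cufflinks, DESeq2 and hg19, without versions or roles; no source used here gives the annotation or the use of strand, so overlapping and antisense genes cannot be told apart. The values the authors deposited are FPKM, in a table named for read counts. The planned count test was therefore not used. Low values fell on steps of whole fragments for 43.8% to 46.0% of genes (tolerance 0.02 on the log2 scale, genes under 0.3 FPKM), too few to recover counts. By these steps the libraries were put at 1.01 to 1.45 times the depth of the siControl library of 24 h, a rough estimate that was not checked otherwise.

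FPKM were scaled by the median of ratios over 11042 genes (factors 0.947 to 1.02). Genes with at least 1 scaled FPKM in at least 2 libraries were tested on log2(scaled FPKM + 1) with limma 3.58.1 (R 4.3.3; trend and robust moderation), with additive terms for siRNA and time, 2 residual degrees of freedom and Benjamini-Hochberg adjustment over 11690 genes. The fit was tested on simulated data. Members and gene lists were chosen with earlier results of these data known. Every member with a mean of at least 1 FPKM was named, with each library's value from a mean of 5 FPKM or where called. In the comparisons with siControl the called genes of each list were named, and otherwise the 2 largest changes. A few genes that this rule names are counted but not reported here. Promoters came from RefSeq (GRCh38.p14), a build other than hg19. Figures were drawn with matplotlib 3.10.9.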

Additional observations from a re-analysis of the deposited data

Results flagged for a closer look

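COL4A5 was the one chain whose difference from siControl had opposite signs at the 2 times, at least 0.2 in size at each, and this held for both siRNAs. Its siSHC1 minus siControl difference on the log2(scaled FPKM + 1) scale was -0.325 at 48 h and 0.328 at 24 h. Its siNCOA3 minus siControl difference was -0.215 at 48 h and 0.509 at 24 h. COL4A5 was at 4.43 and 4.14 FPKM in siSHC1 at 48 h and 24 h, at 4.91 and 4.88 FPKM in siNCOA3, and at 5.91 and 2.89 FPKM in siControl. Both differences share the siControl libraries, and with 1 library per siRNA and time the difference between the times was not tested.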

How the results depend on the processing

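The labels give no replicate numbers, so no pairing other than by time was possible. With time as a term of the model, siRNAs were compared within each time. Their p-values thus rest on how alike the siRNA differences were at 48 h and 24 h, not on replicates of the same siRNA and time. For siSHC1 against siControl, 5 chains were called, 0 with no filter on low values and 2 with no term for time. For siSHC1 against siNCOA3, 10 were called, 0 with no filter and 2 with no term for time. With no filter, 2 and 4 of all genes were called in these comparisons. Leaving out 1 library at a time gave 0 to 6 chains for siSHC1 against siControl and 1 to 8 for siSHC1 against siNCOA3. Calls over all tested genes, 751 and 1139 with all 6 libraries, also moved with the library left out. The other alternatives (no scaling, equal library totals, a pseudocount of 0.1 FPKM, a minimum of 5 FPKM, no robust moderation) stayed within 1.5 times of each count of chains. With siNCOA3 against siControl and 48 h against 24 h, the count of chains was 0 in each alternative. No called gene changed sign in any alternative. COL1A1 against siControl after siSHC1 was called in 11 of 13 alternatives (adjusted p 0.00626 to 0.0969, limma), COL5A1 in 10 (0.00666 to 0.118), LAMB3 in 8 (0.0196 to 0.151), LAMA5 in 6 (0.0224 to 0.210) and COL27A1 in 7 of 12 (0.0225 to 0.140). Against siNCOA3, LAMB3 was called in 12 of 13 alternatives, COL5A1 in 10, LAMA5, LAMB2 and COL4A1 in 9, COL1A1 in 8, COL27A1 in 7 of 12, COL7A1 in 4 (adjusted p 0.0365 to 0.187, limma), COL4A2 in 4 (0.0360 to 0.207) and COL18A1 in 3 (0.0407 to 0.283). Of the other genes called against siControl, P4HA2 was called in 11 of 13, MMP14 in 9, P4HA1 and DDR1 in 8, LEPREL1 and LOXL2 in 7, PLOD2 and BMP1 in 6, PLOD3 in 5 and DAG1 in 4 (0.0386 to 0.255). ITGB1 was called in 13 of 13 (0.000285 to 0.0451). Where leaving out a library left 1 for a siRNA, that library was assumed to vary like the rest. FPKM hold no depth, so counting error at low levels was not estimated.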
